A study of Mus musculus with 32 samples.

Results

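The astrocyte genes described here are 30 genes that mark astrocytes or are enriched in them: Gfap, Aqp4, Slc1a2, Slc1a3, Gja1, Gjb6, Aldh1l1, S100b, Glul, Aldoc, Mlc1, Sox9, Fgfr3, Ntsr2, Slc4a4, Cldn10, Acsbg1, Ppap2b, Cbs, Gpr37l1, Slc7a10, F3, Id4, Clu, Apoe, Sparcl1, Htra1, Slc25a18, Ttyh1 and Ednrb. A probe of the array was counted as a member when the platform table gave it one of these symbols, or an older symbol of the same gene, and its detection p-value was under 0.01 in at least 6 arrays. By this rule 40 probes of 27 genes were kept, where the array holds 46 probes of 29 of the genes, and 12351 probes of 8674 gene symbols passed the same detection filter over the whole array. RNA of whole brain from 32 naïve male mice had been hybridized to Illumina Mouse Ref8 v2 bead arrays, 1 array per mouse. The inbred parental strains were C57BL/6J, called B6 (n = 10), and DBA/2J, called D2 (n = 6). R8 (n = 10) is a congenic of the B6 background in which a short stretch of distal chromosome 1 is of D2 origin. R2 (n = 6) is the reverse, a D2 background with a longer B6 stretch that covers the same region. Each congenic is 1 line, and no animal had received alcohol. R8 against B6 and R2 against D2 ask what the donor segment changes, whereas D2 against B6 and R2 against R8 set the backgrounds against each other in separate animals.

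Astrocytes take up glutamate and potassium released by neurons, convert glutamate to glutamine, and cover blood vessels with endfeet rich in water channels. They are joined into networks by gap junctions and secrete lipoprotein particles, matrix proteins and proteins that act on synapses. Gfap, the intermediate filament by which they are often recognized, rises when they become reactive to injury or inflammation. In bulk tissue, fewer astrocytes and less RNA per astrocyte cannot be told apart.

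Levels are log2 signals after background correction and quantile normalization of all 32 arrays together (neqc in limma), and differences are log2 differences of strain means with their SE from 1 limma fit of the 4 strains. P-values were adjusted by Benjamini and Hochberg's method across all 12351 probes, and a probe was called at an adjusted p under 0.05. A level is comparable between strains for the same probe and not between probes. Median raw signals ranged from 380.2 to 578.5 over the arrays, and 10834 to 12283 probes were detected per array. The first D2 replicate stood apart, with a median correlation of 0.9802 with the other D2 arrays, where the next lowest array of any strain had 0.9874. Median signal also fell along the columns of the deposited table, from a mean of 537.4 in the first 8 arrays to 420.6 in the last 8, and every run of 8 columns held all 4 strains.

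Astrocyte transcripts were well represented in all strains. Of the 40 probes, 36 were detected in all 32 arrays, among them those of Gfap, Aqp4, Slc1a3, Gja1, S100b, Aldoc and Apoe. The others were single probes of Cbs, Ednrb, Slc1a2 and F3. No probe of Gjb6, the gap junction gene connexin 30, stands in the platform table, so it was not analysed here. Mlc1, a membrane protein of astrocyte endfeet, and Slc4a4, a sodium bicarbonate cotransporter, had 1 probe each, detected in 0 arrays. A further probe each of Aldh1l1, Cldn10, Fgfr3 and Slc1a2 was likewise detected in 0 arrays.

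As a group, the astrocyte genes showed no shift between strains beyond the spread between mice. The median deviation of the 40 probes from their means over all arrays lay between -0.04 and 0.06 in B6, between -0.06 and 0.06 in R8, between -0.06 and 0.04 in R2 and between -0.03 and 0.03 in D2. These ranges overlapped in every pair of strains. The median difference of the 40 probes was 0.005 for R8 minus B6, -0.019 for R2 minus D2, -0.008 for D2 minus B6 and -0.035 for R2 minus R8. Over all probes tested the same medians were -0.002, 0.002, 0.018 and 0.023.

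**Figure D1:**
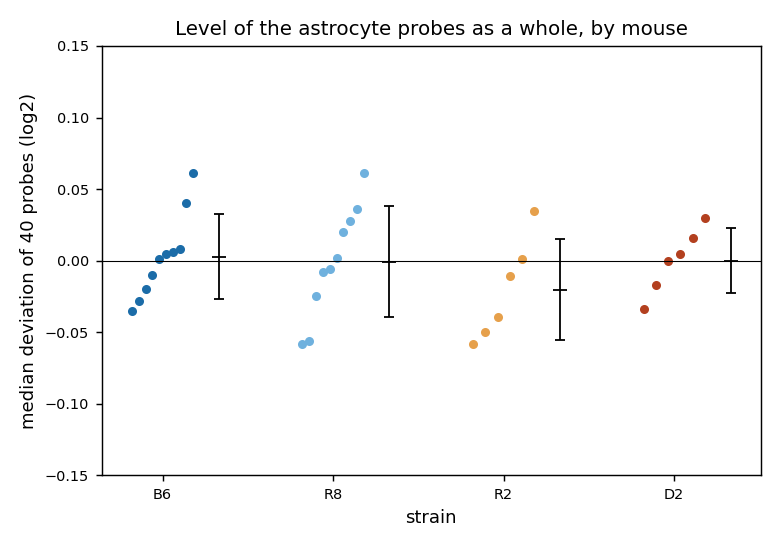
The median deviation of the 40 astrocyte probes from their means over all arrays (log2, vertical axis) is plotted for each mouse by strain (horizontal axis, points sorted by value, bars mean ± SD). All 32 mice sit between -0.06 and 0.06, and the strains overlap.

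No astrocyte probe was called between a congenic and its background strain. In R8 against B6, 0 of 40 probes were called, where 0.081% of all probes were, and differences ran from -0.21 to 0.12. At an unadjusted p under 0.01 the count of members was also 0, beside 0.939% of all probes. No 95% confidence interval of a member reached beyond -0.41 or 0.29, so the arrays left room for changes of that size in single genes. The smallest p-values belonged to a dim probe of Cbs (ILMN_2701582), the transsulfuration enzyme cystathionine beta-synthase, which was detected in 10 of 10 B6 and 7 of 10 R8 arrays and differed by -0.21 ± 0.10 (SE, limma adjusted p = 1). Next came a probe of Cldn10 (ILMN_1214954), at 0.09 ± 0.06, and a probe of Slc1a2 (ILMN_3076439), at 0.07 ± 0.05, both with an adjusted p of 1. The 10 oligodendrocyte genes tested beside them all had positive differences in R8, with a median of 0.16, and 0 were called.

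In R2 against D2, again 0 of 40 probes were called, where 0.494% of all probes were, and differences ran from -0.27 to 0.20. Confidence intervals were wider with 6 arrays a strain and reached -0.55 and 0.51. Clu, which encodes the secreted chaperone clusterin, was the only member with an unadjusted p under 0.01, beside 5.12% of all probes. Its level was 14.93 at the lowest, 15.03 at the median and 15.09 at the highest in R2, and 14.55, 14.89 and 15.08 in D2. The strains overlapped, with 2 of 6 R2 mice above all D2 mice, and the difference was 0.19 ± 0.07 (SE, limma adjusted p = 0.194). Gpr37l1, a receptor of astrocytes related to the endothelin receptors, differed by -0.22 ± 0.08 (adjusted p = 0.197), and Aldoc, the brain form of the glycolytic enzyme aldolase, by -0.11 ± 0.04 (adjusted p = 0.224). Without the first D2 replicate these differences were 0.14 for Clu, -0.13 for Gpr37l1 and -0.09 for Aldoc.

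Whether the effect of the D2 allele differed between backgrounds was tested as R8 minus B6 against D2 minus R2, and 0 of 40 probes were called (0.113% of all probes). The smallest p-values were those of the dim Cbs probe, at -0.38 ± 0.16 (SE, limma adjusted p = 0.535), of Fgfr3, a fibroblast growth factor receptor, at -0.34 ± 0.14 (adjusted p = 0.545), and of Ntsr2, at 0.22 ± 0.10 (adjusted p = 0.594). The R2 segment is longer than the R8 segment, so this comparison also sets segments of unequal length against each other.

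**Figure D2:**
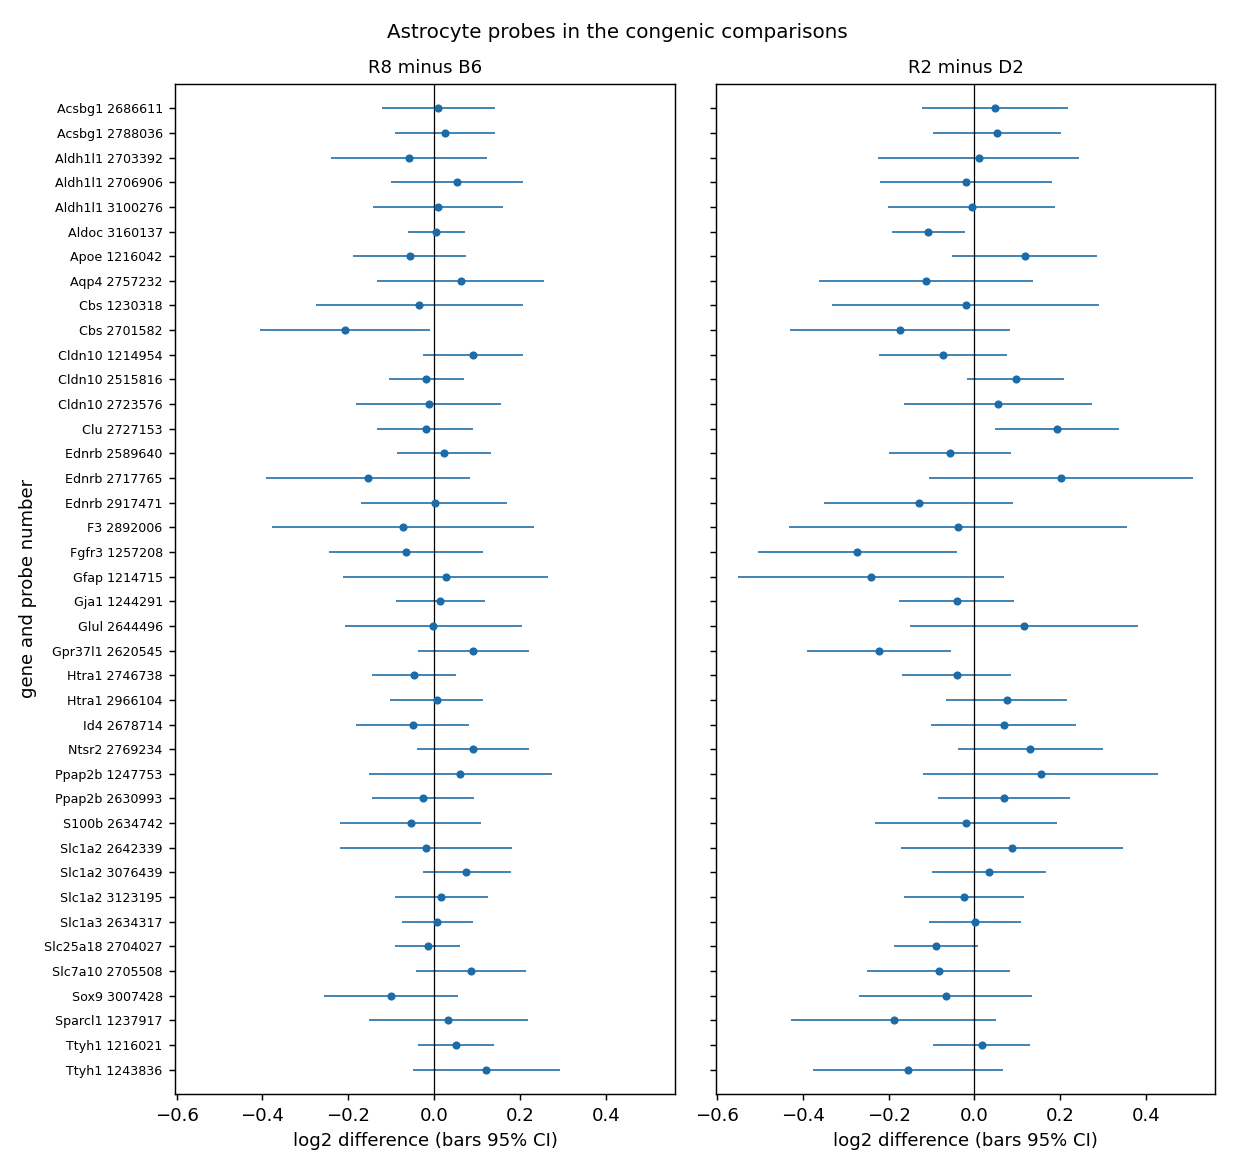
Log2 differences of the 40 astrocyte probes (points) with 95% confidence intervals (bars) are plotted for R8 minus B6 on the left and R2 minus D2 on the right, with gene and probe number on the vertical axis. Differences lie between -0.21 and 0.12 on the left and between -0.27 and 0.20 on the right, and 0 were called in either comparison.

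The backgrounds differed in individual astrocyte genes, some higher and some lower on the D2 background. In D2 against B6, 14 of 40 probes, of 10 genes, were called (35%), 8 higher and 6 lower, where 20.4% of all probes were called, 10.3% higher and 10.1% lower. In R2 against R8, 10 probes of 8 genes were called (25%), 5 higher and 5 lower, where 21.7% of all probes were, 11.3% higher and 10.4% lower. The arrays of the strains did not overlap at all for 7 of the 40 probes (17.5%) in the parental pair, beside 7.72% of all probes, and for 6 (15%) in the congenic pair, beside 8.67% of all probes. The share called in R2 against R8 is near that over all probes, and none of these shares was tested as a property of the list. D2 minus B6 and R2 minus R8 have no array in common, and 8 probes were called in both, each in the same direction, 5 higher and 3 lower. They were 57.1% of the calls in the parental pair and 80% of those in the congenic pair, beside 63.7% and 59.8% over all probes. Across the 40 probes the differences correlated with r = 0.941 and rho = 0.729, beside 0.875 and 0.495 across all probes, as a description over genes that are not independent. F3 passed the detection filter only through the strains in which it is high, and without it the counts of called probes were 13 of 39 and 9 of 39. F3 is also among the probes without overlap, those called in both pairs and those of the correlation. These figures were not recomputed without it and lean on it in part. The sequences of these probes were not analysed here, so the values are differences in hybridization signal.

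**Figure D3:**
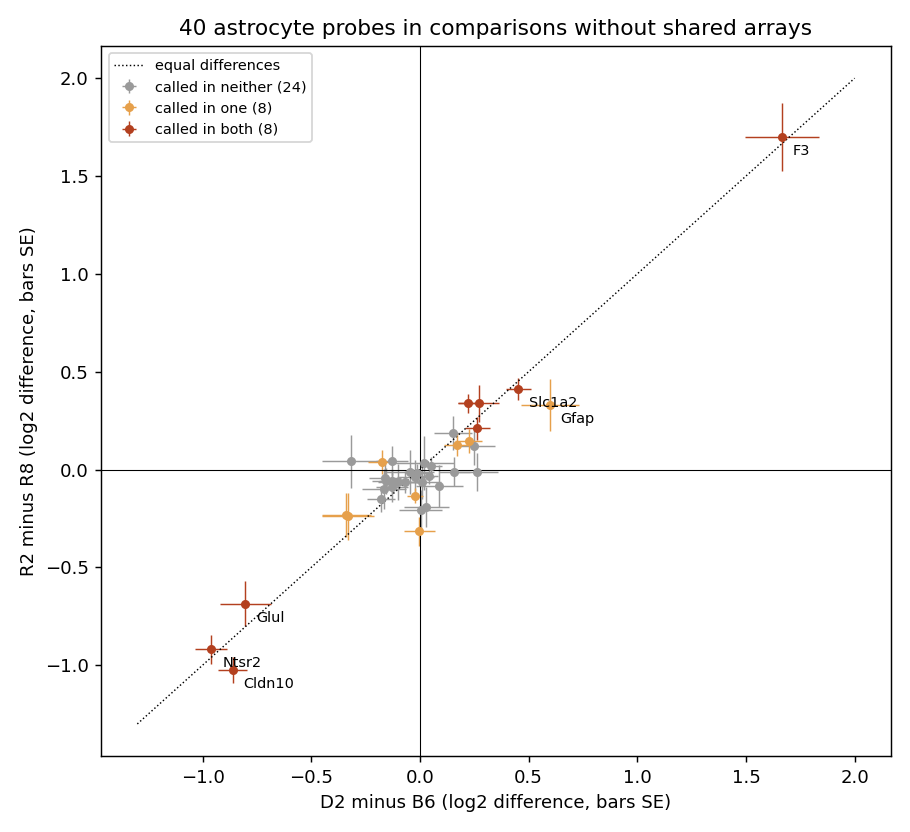
Each point is an astrocyte probe, with the log2 difference D2 minus B6 on the horizontal axis, R2 minus R8 on the vertical axis and SE as bars. Of the 40 probes, 8 were called in both comparisons, 8 in one and 24 in neither, and F3, Ntsr2, Glul and a Cldn10 probe lie farthest from 0 near the line of equal differences.

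Among the genes of glutamate handling, Glul was lower and a probe of Slc1a2 was higher on the D2 background. Glul encodes glutamine synthetase, the enzyme by which astrocytes turn glutamate into glutamine. Its level was 12.50 at the lowest, 12.77 at the median and 13.04 at the highest in B6, and 12.45, 12.78 and 13.10 in R8. In R2 the corresponding levels were 11.80, 11.96 and 12.62, and in D2 they were 11.81, 11.97 and 12.27. All 6 D2 mice lay below all B6 mice, and 5 of the 6 R2 mice lay below all R8 mice. The difference was -0.80 ± 0.12 for D2 minus B6, or 1.74-fold lower (SE, limma adjusted p = 1.48e-06), and -0.69 ± 0.12 for R2 minus R8 (adjusted p = 2.16e-05). Glul and Gpr37l1 are the 2 members on chromosome 1 by RefSeq, and both lie proximal to the donor segments of R8 and R2 in the same genome build.

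Slc1a2 encodes GLT-1, the main glutamate transporter of forebrain astrocytes, and its 3 tested probes, which the platform table assigns to different transcript records, did not move together. The probe ILMN_3076439 had a level of 12.01 at the lowest, 12.11 at the median and 12.20 at the highest in B6, and 12.06, 12.17 and 12.41 in R8. In R2 it had 12.385, 12.61 and 12.70, and in D2 12.42, 12.56 and 12.79. All D2 mice were above all B6 mice, and 5 of 6 R2 mice were above all R8 mice. It was higher by 0.45 ± 0.06 in D2 than in B6 (SE, limma adjusted p = 1.44e-07) and by 0.41 ± 0.06 in R2 than in R8 (adjusted p = 9.09e-07). The probe ILMN_3123195 was higher by 0.17 ± 0.06 in D2 (adjusted p = 0.0457), a call lost when any of 14 single arrays was left out. Another probe of the same transcript record, ILMN_3047516, was detected in 0 arrays. The dim probe ILMN_2642339, detected in all B6 and R8 arrays but in 5 of 6 R2 and 4 of 6 D2 arrays, was lower in D2, with a difference of -0.34 ± 0.11 (adjusted p = 0.0298). Neither ILMN_3123195 nor ILMN_2642339 was called in R2 against R8, where their differences were 0.13 and -0.23.

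The other members of this group were not called in any comparison. Slc1a3, which encodes the glutamate transporter GLAST, had medians of 15.51 in B6, 15.52 in R8, 15.49 in R2 and 15.51 in D2. Slc25a18, a mitochondrial glutamate carrier, had medians of 13.53, 13.53, 13.48 and 13.565, and Slc7a10, a transporter of small neutral amino acids, had 11.65, 11.71, 11.715 and 11.85.

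Of the receptors, Ntsr2 had the largest differences between backgrounds, lower in D2 and R2. It encodes a neurotensin receptor, found in brain largely on astrocytes. Its level was 12.65 at the lowest, 13.05 at the median and 13.17 at the highest in B6, and 12.93, 13.05 and 13.35 in R8. In R2 the levels were 12.08, 12.14 and 12.25, and in D2 they were 11.75, 12.11 and 12.14. No mouse of the D2 background reached the lowest mouse of the B6 background. The difference was -0.96 ± 0.07 for D2 minus B6, or 1.94-fold lower (SE, limma adjusted p = 1.08e-12), and -0.92 ± 0.07 for R2 minus R8, or 1.89-fold lower (adjusted p = 3.09e-12).

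Gpr37l1 was lower in R2 than in R8 and was not called between D2 and B6. Its level was 13.03 at the lowest, 13.06 at the median and 13.17 at the highest in R2, against 13.22, 13.40 and 13.51 in R8. The R2 and R8 mice did not overlap, and the difference was -0.32 ± 0.07 (SE, limma adjusted p = 0.00131). For D2 minus B6 it was -0.002 ± 0.07 (adjusted p = 0.991), and without the first D2 replicate the means differed by -0.09. The difference between these 2 values was not tested. In Ednrb, the endothelin B receptor, the probe ILMN_2589640 was higher by 0.225 ± 0.06 in D2 than in B6 (adjusted p = 0.00724), with 5 of 6 D2 mice above all B6 mice, and differed by 0.145 ± 0.06 between R2 and R8 (adjusted p = 0.0958). A further Ednrb probe, ILMN_2917471, differed by 0.25 ± 0.10 in D2 (adjusted p = 0.0667). The dim probe ILMN_2717765 had a difference of -0.315 ± 0.13 (adjusted p = 0.0981) and was detected in 6 of 10 B6 and 1 of 6 D2 arrays. Fgfr3 was not called, with medians of 10.25 in B6, 10.17 in R8, 10.05 in R2 and 10.18 in D2.

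**Figure D4:**
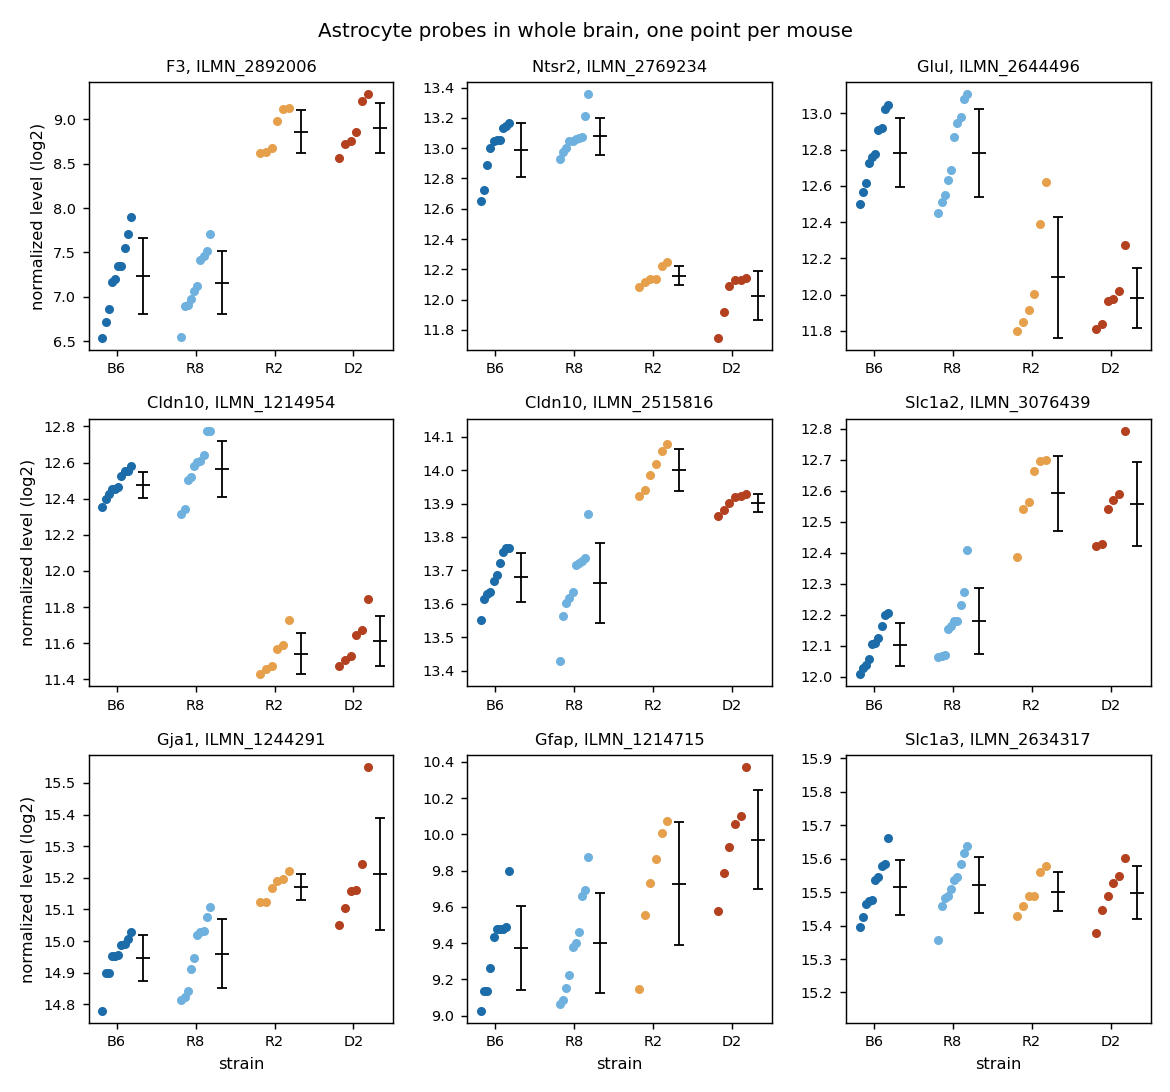
Normalized levels (log2, vertical axes, which differ in range between panels and do not start at 0) of 9 astrocyte probes are plotted by strain, with a point per mouse sorted by level and mean ± SD as bars. Ntsr2 and the Cldn10 probe ILMN_1214954 are lower in all R2 and D2 mice than in all B6 and R8 mice, F3 is higher, and Slc1a3 overlaps in all 4 strains.

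Cldn10 encodes claudin 10, a membrane protein of the tight junction family, and its probes changed in opposite directions. The probe ILMN_1214954 had a level of 12.36 at the lowest, 12.46 at the median and 12.58 at the highest in B6, and 12.31, 12.59 and 12.775 in R8. In R2 the levels were 11.43, 11.52 and 11.73, and in D2 they were 11.48, 11.59 and 11.85. All mice of the D2 background lay below all mice of the B6 background. The difference was -0.86 ± 0.07 for D2 minus B6 (SE, limma adjusted p = 7.52e-13) and -1.02 ± 0.07 for R2 minus R8, or 2.03-fold lower (adjusted p = 7.7e-15). The probe ILMN_2515816 was higher on the D2 background. Its level was 13.55 at the lowest, 13.68 at the median and 13.77 at the highest in B6, and 13.43, 13.67 and 13.87 in R8. In R2 it was 13.92, 14.00 and 14.08, and in D2 13.86, 13.91 and 13.93. Again no D2 mouse overlapped B6 and no R2 mouse overlapped R8. The difference was 0.22 ± 0.05 (adjusted p = 7.79e-04) in the parental and 0.34 ± 0.05 (adjusted p = 1.64e-06) in the congenic pair. The remaining probe, ILMN_2723576, was higher by 0.27 ± 0.10 (adjusted p = 0.0418) and by 0.34 ± 0.10 (adjusted p = 0.0086), and its call in the parental pair was lost when any of 8 single arrays was left out. The platform table assigns the probe that was lower to a different RefSeq transcript than the probes that were higher. A further probe assigned to the transcript of the lower probe, ILMN_2610656, was detected in 0 arrays, so the 2 probes of that transcript did not give the same picture.

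RefSeq gives Cldn10 2 start sites on chromosome 14 (GRCm38.p6), 67079 bases apart on the plus strand. Their promoters, from 250 bases before to 50 bases after the start, are shown because the probes assigned to different transcripts moved apart, and that of Ntsr2 is shown beside them as the member with the largest fall in D2. Which start site each probe reports on was not settled here. The promoters are those of the reference genome, and the sequences of B6 and D2 were not compared, so they do not bear on the strain differences. Capitals mark the letters ACAAAG (a SOX motif) in Cldn10, found on the minus strand and so printed as its reverse complement, and TTCNNNGAA (a STAT motif) in Ntsr2.
Cldn10, chr14:118787621-118787920, plus strand: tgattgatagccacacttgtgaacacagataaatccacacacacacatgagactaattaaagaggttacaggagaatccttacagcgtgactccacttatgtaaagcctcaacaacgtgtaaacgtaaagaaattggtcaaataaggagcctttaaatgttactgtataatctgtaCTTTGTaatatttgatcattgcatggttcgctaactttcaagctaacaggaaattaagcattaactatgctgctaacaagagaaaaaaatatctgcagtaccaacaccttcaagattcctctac
Cldn10, chr14:118854700-118854999, plus strand: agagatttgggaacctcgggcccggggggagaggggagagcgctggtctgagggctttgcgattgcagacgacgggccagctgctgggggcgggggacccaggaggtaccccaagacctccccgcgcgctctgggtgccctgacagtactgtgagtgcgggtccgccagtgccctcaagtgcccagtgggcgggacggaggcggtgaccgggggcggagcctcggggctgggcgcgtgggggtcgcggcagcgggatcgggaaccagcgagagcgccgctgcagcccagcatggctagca
Ntsr2, chr12:16653220-16653519, plus strand: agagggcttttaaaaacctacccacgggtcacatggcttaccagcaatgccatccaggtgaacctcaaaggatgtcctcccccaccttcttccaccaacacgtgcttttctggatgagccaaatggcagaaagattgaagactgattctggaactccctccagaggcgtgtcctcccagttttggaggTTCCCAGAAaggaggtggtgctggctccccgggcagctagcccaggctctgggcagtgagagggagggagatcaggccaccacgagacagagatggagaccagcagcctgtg
Over 32 promoters of 26 members, both strands were searched for 3 motifs. TTCNNNGAA was in 5 of the 32, those of Acsbg1, Aldoc, Gfap, Ntsr2 and Slc1a3, beside 8.3% of all 32851 promoters. ACAAAG was in 2, of Apoe and Cldn10, beside 18.7% of all. The full palindromic NFI site was in 0, beside 0.0365% of all.

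The probe of F3 was above background in the strains of the D2 background and not in those of the B6 background. F3 encodes tissue factor, the membrane protein that starts coagulation, which astrocytes supply in brain. All 6 R2 arrays and all 6 D2 arrays detected its probe, whereas 0 of 10 B6 and 0 of 10 R8 arrays did. Its level was 8.625 at the lowest, 8.83 at the median and 9.13 at the highest in R2, and 8.57, 8.81 and 9.28 in D2. In B6 the values were 6.54, 7.27 and 7.90 and in R8 6.55, 7.09 and 7.71, which are not well above background. Set against the lowest detected signal of those arrays after background correction, F3 was at least 1.94-fold higher in D2 than in B6. For R2 against R8 this bound was 1.86-fold. The bounds hold only for background-corrected signals and were not tested. Without background correction the log2 difference was 0.80 in both pairs, a smaller fold than either bound. The limma differences, which take the values near background as they stand, were 1.67 (adjusted p = 1.47e-09) for D2 minus B6 and 1.70 (adjusted p = 9.43e-10) for R2 minus R8. Since detection itself brought this probe into the list, its call adds nothing to the counts over members.

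Clu was lower in D2 than in B6, with a difference of -0.175 ± 0.06 (SE, limma adjusted p = 0.0444), and differed by 0.04 ± 0.06 between R2 and R8 (adjusted p = 0.73). The D2 call was lost when any of 9 single arrays was left out, and without the first D2 replicate the difference was -0.12 (adjusted p = 0.187). Apoe, the main lipid carrier secreted by astrocytes, had medians of 14.13 in B6, 14.06 in R8, 14.13 in R2 and 14.01 in D2. Sparcl1, a matrix protein that promotes synapse formation, and Htra1, a secreted serine protease, were not called in any comparison.

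Gja1, which encodes connexin 43, the main gap junction protein of astrocytes, was higher on the D2 background by a small step. Its level was 14.78 at the lowest, 14.955 at the median and 15.03 at the highest in B6, and 14.815, 14.98 and 15.11 in R8. In R2 it was 15.12, 15.18 and 15.22, and in D2 15.05, 15.16 and 15.55. The strains of the D2 background did not overlap with their partners on the B6 background. The difference was 0.265 ± 0.06 for D2 minus B6, or 1.20-fold (SE, limma adjusted p = 7.42e-04), and 0.21 ± 0.06 for R2 minus R8 (adjusted p = 0.0075).

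Gfap was higher in D2 than in B6 and did not pass the threshold between R2 and R8. Its level was 9.03 at the lowest, 9.455 at the median and 9.80 at the highest in B6, and 9.58, 9.99 and 10.37 in D2. Of the 6 D2 mice, 4 lay above all B6 mice. The difference was 0.60 ± 0.13, or 1.51-fold (SE, limma adjusted p = 0.001), and 0.52 without the first D2 replicate. In R8 the level was 9.07 at the lowest, 9.39 at the median and 9.875 at the highest, and in R2 9.15, 9.80 and 10.07. These strains overlapped over most of their range, with a difference of 0.33 ± 0.13 (adjusted p = 0.0796). The gap between the parental and the congenic difference was not tested. S100b, a calcium-binding protein of astrocytes, was not called, with medians of 11.17 in B6, 11.22 in R8, 11.08 in R2 and 11.10 in D2.

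Of the metabolic enzymes and the transcription regulators, few probes were called. Aldoc was lower in R2 than in R8, with a difference of -0.13 ± 0.04 (SE, limma adjusted p = 0.0078), and differed by -0.02 ± 0.04 between D2 and B6 (adjusted p = 0.751). Its R2 call was lost with median scaling in place of quantile normalization (adjusted p = 0.125). The raw signals of the Aldoc probe reached 66748.8, and its SD within strains of 0.051 was at the 0.34th percentile of all probes. Whether the probe was near the upper limit of the signal was not tested. One probe of Ppap2b (ILMN_1247753), now named Plpp3, a phosphatase of bioactive lipids, was lower in D2, with a difference of -0.33 ± 0.12 (adjusted p = 0.0466), a call lost when any of 20 single arrays was left out. The brighter Ppap2b probe (ILMN_2630993) had a difference of -0.155 ± 0.07 (adjusted p = 0.107). Neither Sox9, a transcription factor of astrocyte fate, nor Id4, an inhibitor of basic helix-loop-helix factors, was called.

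In all, 15 of the 27 genes had no called probe in any comparison: Acsbg1, Aldh1l1, Apoe, Aqp4, Cbs, Fgfr3, Htra1, Id4, S100b, Slc1a3, Slc25a18, Slc7a10, Sox9, Sparcl1 and Ttyh1. They include Aqp4, the water channel of endfeet, Aldh1l1, a folate enzyme used as a general astrocyte marker, Acsbg1, an acyl-CoA synthetase, and Ttyh1, a membrane protein of a chloride channel family. The differences of their 21 probes ran from -0.18 to 0.26 for D2 minus B6 and from -0.205 to 0.19 for R2 minus R8. Confidence intervals reached -0.38 and 0.46 in the former and -0.41 and 0.37 in the latter.

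The direction of the leading differences was also looked at within runs of 8 neighbouring columns. Each run held 1 or 2 D2 and 1 or 2 R2 mice. For Ntsr2, F3, Gja1 and the Cldn10 probes ILMN_1214954 and ILMN_2515816 neither background pair overlapped, so the direction could not have differed between runs. The same held for Glul and the Slc1a2 probe ILMN_3076439 in D2 minus B6. In R2 minus R8, where these 2 probes overlapped, they kept their direction in each of the 4 runs. The Cldn10 probe ILMN_2723576, which overlapped in both background comparisons, kept its direction in each run of both. For Ntsr2 the differences within runs lay between -1.09 and -0.545 for D2 minus B6 and between -0.97 and -0.88 for R2 minus R8. For Gfap the direction was kept in 4 of 4 runs in the parental and 3 of 4 in the congenic pair.

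Astrocyte genes outside the 30 members were called in both directions between backgrounds. Of 38 tested genes in a list of 49 further astrocyte genes, 2 were higher and 3 lower in D2 than in B6 (13.2%, beside 20.4% of all probes), and 5 were higher and 7 lower in R2 than in R8 (31.6%, beside 21.7%). Ncan, a proteoglycan of brain matrix, was higher by 0.99 ± 0.10 (SE, limma adjusted p = 4.06e-10) in the parental and by 0.85 ± 0.10 (adjusted p = 1.34e-08) in the congenic pair. Entpd2, an enzyme that hydrolyses extracellular ATP, had differences of -0.845 ± 0.08 (adjusted p = 1.85e-10) and -0.75 ± 0.08 (adjusted p = 2.69e-09). Fabp7, a fatty acid binding protein of radial glia and astrocytes, was higher by 0.70 ± 0.18 (adjusted p = 0.00329) and 0.60 ± 0.18 (adjusted p = 0.0113). In the congenic comparisons 0 of the 38 were called.

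Genes known to rise in reactive astrocytes were called in both directions too. Of 13 tested in a list of 29, 3 were higher and 3 lower in D2 than in B6 (46.2%, beside 20.4% of all probes), and 3 were higher and 1 lower in R2 than in R8 (30.8%, beside 21.7%). Their summed linear level was 10620 to 12450 in B6, 10600 to 12970 in R8, 13050 to 14820 in R2 and 12800 to 14700 in D2. The strains of the D2 background lay above their partners without overlap in this sum. Without Serpina3n the sums of the other 12 genes were 9270 to 11190, 9316 to 11440, 9286 to 11280 and 9237 to 10970, and all 4 strains overlapped. Serpina3n, a secreted protease inhibitor and a widely used reactive marker, was higher by 1.52 ± 0.09 (SE, limma adjusted p = 2.43e-15) and 1.55 ± 0.09 (adjusted p = 1.33e-15). Emp1, a membrane protein, was higher by 0.61 ± 0.10 (adjusted p = 5.59e-06) and 0.49 ± 0.10 (adjusted p = 1.69e-04). Gbp2, an interferon-induced GTPase, was higher by 0.605 ± 0.10 in R2 than in R8 (adjusted p = 2.56e-05). S100a10, an annexin partner, had differences of -0.43 ± 0.09 (adjusted p = 1.80e-04) and -0.28 ± 0.09 (adjusted p = 0.0152). Hspb1, a small heat shock protein, differed by -0.49 ± 0.13 in D2 (adjusted p = 0.00432).

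Markers of some other brain cells also differed between backgrounds. The summed linear level of the 11 microglia genes tested was 18800 to 22570 in B6 and 17210 to 18250 in D2, without overlap, and 5 genes were lower and 1 higher in D2 (54.5%, beside 20.4% of all probes). Between R8 and R2 the sums overlapped, at 17670 to 21090 and 17530 to 19440, and again 5 genes were lower and 1 higher in R2 (54.5%, beside 21.7%). C1qb, a complement subunit made by microglia, differed by -1.165 ± 0.09 (SE, limma adjusted p = 2.13e-12). The microglia sums were not recomputed without C1qb. For the 11 endothelial and mural genes the sums were 25250 to 28300 in B6 and 21360 to 23700 in D2, also without overlap, and 24700 to 27300 in R8 and 22760 to 24790 in R2, which overlapped. For the astrocyte members themselves, 1 probe a gene, the sums were 338200 to 372400 in B6 and 340700 to 370100 in D2 and overlapped. A linear sum weighs the brightest genes most, here Aldoc, Slc1a3, Clu and Gja1, and says little about dim members. The sums of the 13 neuronal genes overlapped in B6 and D2, at 389100 to 409500 and 387300 to 416400. In R8 and R2 the neuronal sums were 386400 to 417800 and 367700 to 388600, which overlapped narrowly, with R2 the lower. Of these neuronal genes 1 was lower in D2 than in B6 (7.69%, beside 20.4% of all probes) and 3 were lower in R2 than in R8 (23.1%, beside 21.7%). Of 10 oligodendrocyte genes 0 were called in the parental pair and 4 were lower in R2 than in R8 (40%, beside 21.7%). Of the endothelial and mural genes 3 were lower in each pair (27.3%, beside 20.4% and 21.7%). What part these cell types had in the differences of single astrocyte genes was not tested.

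Among mice of the same strain, the deviations of different astrocyte genes were on balance uncorrelated. The SD within strains had a median of 0.143 over the 40 probes and 0.163 over all probes tested. The Pearson correlation of residuals from the strain means, over 32 arrays that share their normalization, had a median of 0.0165 over 763 pairs of member probes from different genes. Over pairs among every 4th probe tested, the median was -0.000799. Pairs of probes for the same gene had a median of 0.279 (17 pairs), from -0.394 for Ttyh1 to 0.695 for Ednrb. The highest correlations between different genes were 0.655 for Aqp4 with Ednrb (ILMN_2589640) and 0.635 for Aldoc with Sparcl1, and the lowest was -0.683 for Clu with Sparcl1. These are given as a description without a test.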

How the data were processed

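Signals came from 32 arrays, 10 B6, 10 R8, 6 R2 and 6 D2, grouped by the strain in the sample labels. The deposited table gives a bead intensity for each of 25697 probes, left without normalization by the authors, and a detection p-value, also as deposited. A second deposited table of intensity values, normalized by the authors, served as an alternative. Arrays have no read depth, and precision is limited by how many there are.

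In limma 3.58.1 (R 4.3.3), neqc corrected the background from the detection p-values, applied quantile normalization and added an offset of 16 before log2. Probes detected (p under 0.01) on 6 or more arrays were tested by lmFit and eBayes (28 residual degrees of freedom), with 0.05 as the threshold on the adjusted p. One gene symbol was given for 23978 probes (1 each), and names were updated through RefSeq. Promoter sequences are RefSeq's (GRCm38.p6). No 2 arrays held identical signals (0 pairs). The labels give 1 array per mouse.

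All 30 members were named, with full values for probes called in any comparison and the 3 smallest p-values in each; of other lists, up to 4 genes with the smallest p in a comparison could be named, except that the cell lists are given by their sums. Other lists were given by the brightest tested probe of each gene. Members and lists were chosen with earlier results of these data known. The fit was tested on simulated data. Alternatives were 2 strains normalized or fitted alone, no background correction, median scaling, the authors' normalized table, other detection filters, blocks by replicate number and label number, array weights and single arrays left out. A block by runs of 8 table columns, differences within those runs, counts without F3, the reactive sum without Serpina3n and the D2 mean of Gpr37l1 without replicate 1 were added after the data were seen.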

Additional observations from a re-analysis of the deposited data

Results flagged for a closer look

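In 11 of 160 groups, each the arrays of a strain for 1 of the 40 astrocyte probes, the highest or lowest mouse lay farther from the rest than Dixon's 95% limit for groups of that size, and chance alone flags about 1 group in 20. Levels are log2. The first D2 replicate, whose array stood apart over all probes, was the highest D2 mouse for Gpr37l1, at 13.76 where the others lay between 13.15 and 13.29, and for Sox9, at 10.71 where the others lay between 10.15 and 10.28. The first R2 replicate was the highest of its strain for Ednrb (ILMN_2589640), at 13.89 above others of 13.59 to 13.69, and for Ppap2b (ILMN_2630993), at 14.65 above others of 14.28 to 14.40. R8 replicate 10 was the highest of its strain for Acsbg1 (ILMN_2788036), at 12.34 above 11.85 to 12.05, and for Ttyh1 (ILMN_1243836), at 10.35 above 9.71 to 10.00. B6 replicate 10 was highest for Aldh1l1 (ILMN_3100276), at 10.23 above 9.67 to 9.96. D2 replicate 5 was highest for Cbs (ILMN_2701582), at 9.02 above 8.26 to 8.46, and R2 replicate 4 was highest for Gpr37l1, at 13.17 above 13.03 to 13.08. R8 replicate 1 was lowest for Ednrb (ILMN_2717765), at 7.11 below 7.70 to 8.27, and B6 replicate 1 was lowest for Gja1, at 14.78 below 14.90 to 15.03. No probe was called for a difference of the allele effect between backgrounds (limma, 0 of 40, and 0 at an unadjusted p under 0.01).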

How the results depend on the processing

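The counts of 0 called probes in R8 against B6, in R2 against D2 and in the difference between backgrounds stayed at 0 under every alternative run, including each array left out. For D2 minus B6 the count of 14 (35%, beside 20.4% of all probes) was 9 without a detection filter (19.6%, beside 10.3%). It was 17 (10 higher and 7 lower) without background correction and likewise 17 in the authors' normalized table (42.5%, beside 21% in both). With single arrays left out it was 10 to 16, the lowest without the first D2 replicate (25%, beside 18.4%). With the strains normalized and fitted alone it was 11 (27.5%, beside 17.8%), of which 8 were higher and 3 lower, against 8 and 6 in the main result. For R2 minus R8 the count of 10 (25%, beside 21.7%) ranged from 10 to 11 with single arrays left out and was 9 with median scaling (22.5%, beside 21.3%). The median difference of the 40 probes ranged from -0.006 to 0.01 (R8 minus B6), from -0.021 to 0.005 (R2 minus D2), from -0.028 to 0.001 (D2 minus B6) and from -0.045 to -0.011 (R2 minus R8) with single arrays left out, and that of R2 minus R8 was 0 with median scaling. These medians were not tested. The calls of Ntsr2, Glul, Gja1, Gpr37l1, Gfap, the Ednrb probe ILMN_2589640, the Slc1a2 probe ILMN_3076439 and the Cldn10 probes ILMN_1214954 and ILMN_2515816 held under every alternative that could test them. F3 was also called under those that could test it, but its probe passed the detection filter only through the strains in which it is high. Its difference was 0.80 in both background comparisons without background correction, where it is 1.67 and 1.70 in the main result. Calls of Clu, Ppap2b, Aldoc, the Slc1a2 probes ILMN_3123195 and ILMN_2642339 and, for D2 minus B6, the Cldn10 probe ILMN_2723576 were lost under at least 1 alternative, and the cause was not tested. Whether replicate numbers pair the arrays was not tested. The correlation of residuals of same-numbered arrays was over 0.1 in 2 of 10 pairs of R8 and B6 and 4 of 6 pairs of R2 and D2. It was over 0.1 in 1 of 6 pairs of D2 and B6 and 3 of 6 pairs of R2 and R8. With the replicate number as a block, 0 probes were called for R8 minus B6, R2 minus D2 and the difference between backgrounds. For D2 minus B6 the block left 12 called (30%, beside 18.1% of all probes) and for R2 minus R8 it left 10 (25%, beside 19%). Probes near background, as for Cbs, F3 and the dim Ednrb and Slc1a2 probes, have the least certain values.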
